A study of Mus musculus with 8 samples.

Results

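The data describe what 2 h of MEK inhibition did to transcripts that had built up, or been lost, during 8 h of 4OHT in mouse embryonic stem cells. The comparison used the 2 arrays of cells given 250 nM 4OHT for 8 h and then 1 µM PD0325901 for 2 h against the 2 arrays of cells given 4OHT for 8 h alone, which are 4 of the 8 arrays in the series. The other 4 arrays, 2 of untreated cells and 2 of cells given 4OHT for 10 h, entered the same fit and are given beside it. All 8 cultures were embryonic stem cells kept with LIF and with PD173074 at 250 nM, which inhibits FGF receptors, so the untreated cells were also grown under that block. The labels call the 8 h and 10 h samples a pulse and the inhibited samples a pulse and chase. They do not name the protein that 4OHT acts on in these cells, nor do they state if 4OHT was still present in the 2 h of inhibitor. The labels name no clone or passage, and 2 biological replicates per condition are stated without saying how the cultures were kept apart, so p-values may measure a spread that is partly technical.

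PD0325901 blocks MEK, the kinase that activates ERK. ERK signalling switches on immediate early genes such as Fos and Egr1 within minutes, then genes for its own negative feedback, among them the DUSP phosphatases that remove phosphate from ERK and the Sprouty and Spred proteins that act on the receptor to RAS step. Many of these messages are short-lived, so their level follows the pathway closely once it is blocked. In mouse embryonic stem cells ERK activity drives cells out of the naive state, and MEK inhibitors are part of the culture conditions that hold cells in it.

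Levels are log2 processed signals minus the 75th percentile of their array, so that 0 stands for that percentile, and levels of different genes are not compared because each comes from its own probe. A change is the log2 level after PD0325901 minus that at 8 h ± the standard error of the limma fit (n = 2 against 2). The percent left is the same change on a linear scale, with 100% for no change. A gene is called when its limma p, adjusted over all 22692 genes and unnamed features with a p by the Benjamini-Hochberg method, was below 0.05. Each array carried 59305 non-control spots, and for replicate 1 36889 to 37789 of them were well above background, for replicate 2 30218 to 31433. The summed signal of 8 embryonic stem cell markers (Pou5f1, Sox2, Nanog, Zfp42, Sall4, Utf1, Lin28a and Dppa5a) was 927 and 883 on the 8 h arrays and 860 and 749 after PD0325901, so all 4 arrays carried the markers of the labelled cell type. Fewer cells of a type and less RNA per cell cannot be told apart in such samples.

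After 2 h of PD0325901, 706 of 22692 genes with a p were called lower (3.11%) and 773 were called higher (3.41%). Together these are 1479 (6.52%), all of which lay on the same side in both replicate numbers with no overlap between the groups' arrays. Over all 22692, called or not, 16747 lay on the same side in both numbers and 11918 had no overlap. At least 2-fold changes numbered 242 among the lower genes and 335 among the higher ones. Of the lower genes, 80 kept under 25% of their 8 h signal, 162 kept 25 to 50%, 417 kept 50 to 75% and 47 kept more, with a median of 58.6%. The higher genes had a median of 188%, and 101 of them rose over 4-fold. Over all tested genes the median was 97.4% and the range from the 5th to the 95th percentile was 64.5 to 168%. The same 2 h without the inhibitor gave 0 calls by limma between 4OHT 10h and 4OHT 8h (0%), with 1501 genes at an unadjusted p under 0.05 and 0 calls with the replicate number as a block, whereas 5001 genes had an unadjusted p under 0.05 in the inhibitor comparison. Against the time-matched 4OHT 10h arrays, PD0325901 gave 652 lower (2.87%) and 737 higher genes (3.25%), 1389 in all (6.12%).

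With the replicate number as a block the counts were 1502 lower and 1682 higher. Leaving out 1 array cut them by more than 1.5 times in most cases. Here and below arrays were left out 1 at a time, so that a call lost without either of a pair was lost without each alone. Such a fit also has fewer residual degrees of freedom than the fit of all 8 arrays. For the untreated pair both omissions gave the same fit of this comparison, since an array alone in its group adds no spread. The same held for the 10 h pair, so each of these pairs gives 1 check. The lower genes numbered 279 and 180 without 4OHT 8h replicate 1 or 2, 224 and 202 without 4OHT 8h then PD0325901 2h replicate 1 or 2, and 453 without either 4OHT 10h array. The higher genes numbered 253 and 211 without the 8 h arrays and 208 and 233 without the PD0325901 arrays, in the same order. Without either untreated array 519 lower and 544 higher genes were called, fewer by less than that factor. Of 348 called genes with another kept probe, 145 had one called in the same direction and 0 one called in the opposite direction. Of 87 called genes chosen by the naming rule, 55 kept their call with each of the 8 arrays left out in turn, and the others are pointed out where they occur.

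Among genes above background on all 4 arrays compared, the deepest falls were in Gsx1, Dusp6, Myc, Egr1, Gbx2, Fos, Phlda1, Bmp4, Cyp26a1 and Noct, which kept 1.65% to 9.40% of their 8 h signal. They include transcription factors of the homeobox (Gsx1, Gbx2), zinc finger (Egr1), bZIP (Fos) and bHLH (Myc) families, an ERK phosphatase (Dusp6), the secreted ligand Bmp4, the retinoic acid hydroxylase Cyp26a1 and Noct, a circadian protein of the deadenylase family. Gsx1 read 0.99 and 1.81 on the 8 h arrays and -5.01 and -4.03 after PD0325901, a change of -5.92 ± 0.49 (limma, adjusted p = 0.00424). All of them had been higher at 4OHT 10h than in untreated cells, and after 2 h of inhibitor 8 of the 10 lay below both untreated arrays, the others being Phlda1 and Cyp26a1.

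**Figure D1:**
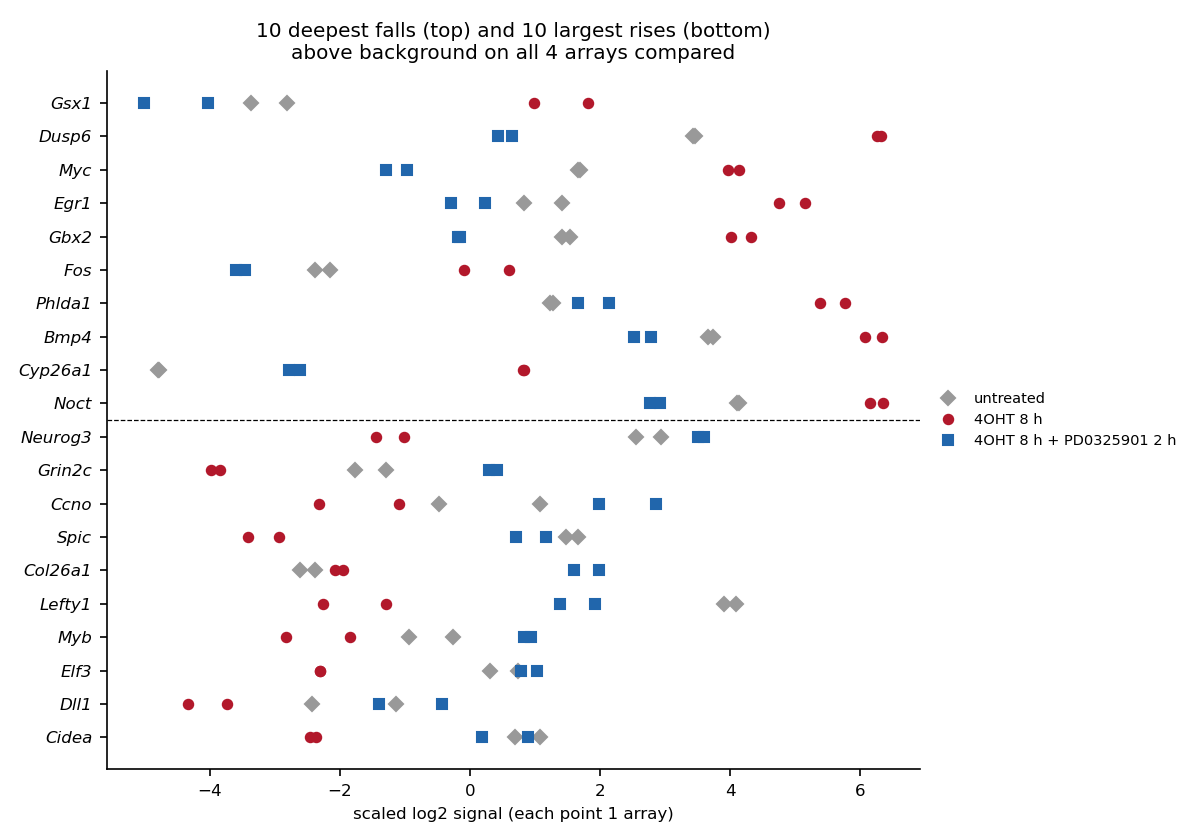
Scaled log2 signal (x axis) of the 10 deepest falls and 10 largest rises among called genes above background on all 4 arrays compared, with 1 point per array: grey diamonds are untreated cells, red circles 4OHT 8 h and blue squares 4OHT 8 h then PD0325901 2 h. Red and blue points do not overlap for any gene, which was a condition of the choice. The blue points of 8 falling genes lie to the left of the grey ones, whereas Phlda1 and Cyp26a1 lie between grey and red.

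The largest rises in the same class of genes were in Neurog3, Grin2c, Ccno, Spic, Col26a1, Lefty1, Myb, Elf3, Dll1 and Cidea. Neurog3, a proneural transcription factor, read -1.44 and -1.02 on the 8 h arrays and 3.51 and 3.61 after PD0325901, a 27.6-fold rise (4.78 ± 0.22, limma adjusted p = 0.00109), and its untreated level was 2.56 and 2.94. Its inhibited arrays lay above both untreated arrays. Spic, a transcription factor of the ETS family, rose 17.3-fold to 1.17 and 0.71, close to but below its untreated level of 1.66 and 1.48. Of the 10, 9 had been at least 2-fold lower at 4OHT 10h than in untreated cells, of which Ccno (-1.63 log2) and Dll1 (-1.56) missed the adjusted p of that comparison. Col26a1, a collagen gene, was the 1 that 4OHT had raised by 10 h. It read -2.61 and -2.38 in untreated cells, -1.96 and -2.07 at 8 h and 1.98 and 1.60 after PD0325901, a 13.9-fold rise (adjusted p = 0.00112, limma). The calls of 4 of these genes were lost when arrays were left out in turn: Ccno (without either 8 h array, either 10 h array or either PD0325901 array, adjusted p up to 0.150), Dll1 (without either 8 h array, either 10 h array or either PD0325901 array, adjusted p up to 0.160), Myb (without either PD0325901 array, adjusted p up to 0.0639) and Lefty1 (without PD0325901 replicate 2, adjusted p up to 0.0528).

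Most ERK feedback genes that were called were lower, and the ETV genes of the same list were not called. Of 20 listed genes 19 were tested, and 10 were called lower and 1 higher, where 3.63% and 4.44% of all 14497 genes with a symbol were called (8.06% either way). Their median was 55.1% of the 8 h signal. This list and those below were chosen with earlier results of these data known. An excess of their calls over the share of all genes is therefore a description and no independent support. Leaving out 1 array gave 8 to 10 lower calls, the fewest without 4OHT 8h then PD0325901 2h replicate 1, and the replicate block gave 12 and 3. The shares of 3.63% lower, 4.44% higher and 8.06% either way stand beside the counts of every list below. For counts with the block, the block called 1502 lower and 1682 higher of all 22693 genes and features. List members named in this and the following paragraphs that are outside the naming rule were chosen after their values were seen.

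Dusp6, a cytoplasmic phosphatase specific for ERK, read 6.32 and 6.26 on the 8 h arrays and 0.43 and 0.65 after PD0325901, against 6.38 and 6.42 at 10 h without the inhibitor. It kept 1.87% of its signal (95% interval 1.59 to 2.19%), a change of -5.74 ± 0.09 (limma, adjusted p = 5.89e-05). Each array of the inhibited cells was below every other array in the series. Expressed as a mean rate over the 2 h, this is a halving every 0.348 h, a description that assumes an even exponential fall. Dusp5, a nuclear ERK phosphatase, went from -0.71 and -0.81 to -2.86 and -2.79 and kept 24.0% (adjusted p = 0.00217, limma), a halving every 0.971 h. Dusp4, another nuclear phosphatase, went from 2.62 and 2.92 to 0.80 and 1.22 and kept 29.6% (limma, adjusted p = 0.0105). Unlike Dusp6, both stayed far above their untreated levels, which were -4.59 and -4.78 for Dusp5 and -1.36 and -1.38 for Dusp4. The Dusp4 call was lost without 4OHT 8h replicate 2 or PD0325901 replicate 1 (adjusted p up to 0.0631, limma).

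The Sprouty and Spred genes, whose proteins dampen RAS and RAF activation, spanned the range. Spry4 fell from 2.37 and 2.10 to -4.85 and -5.22, and since only 1 of its inhibited arrays was well above background, its 0.648% left is near the limit of the assay. Spry2 fell from 2.16 and 2.37 to -0.58 and -0.45 and kept 14.6% (95% interval 12.3 to 17.2%, limma adjusted p = 0.000445). Spred1 kept 43.2%, from 3.26 and 3.20 to 1.99 and 2.05 (-1.21 ± 0.07, adjusted p = 0.00150, limma). Spry1 kept 24.0%, the receptor antagonist Il17rd 27.8% and Spred2 55.1%, all called lower, while Spred3 stood at 66.2% and was not called (limma, adjusted p = 0.199).

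The ETV transcription factors, ETS family members widely used as readouts of FGF and ERK signalling, were not called. Etv4 read 4.29 and 4.10 in untreated cells, 6.0002 and 5.98 on the 8 h arrays and 5.81 and 5.79 after PD0325901, which is 87.7% left (95% interval 76.0 to 101%, limma adjusted p = 0.260). Its inhibited arrays were slightly below its 8 h arrays and remained far above the untreated ones. A second Etv4 probe changed by -0.31 and was not called either (limma, adjusted p = 0.186). Etv5 read 6.50 and 6.67 in untreated cells, 6.55 and 6.56 on the 8 h arrays and 6.48 and 6.42 after PD0325901 (93.0% left, 95% interval 80.8 to 107%, adjusted p = 0.523, limma), and its 4 groups differed by little. Etv1 stood at 70.1%, not called (adjusted p = 0.0682, limma) and 0.0223 with the replicate block. Dusp14 was the member called higher, at 258% (limma, adjusted p = 0.0420), a call lost without any 1 of the untreated, 8 h or PD0325901 arrays, while cyclin D1 (Ccnd1) stood at 167% and Dusp9 at 102%, neither called (Ccnd1 with the replicate block, adjusted p = 0.0205, limma).

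**Figure D2:**
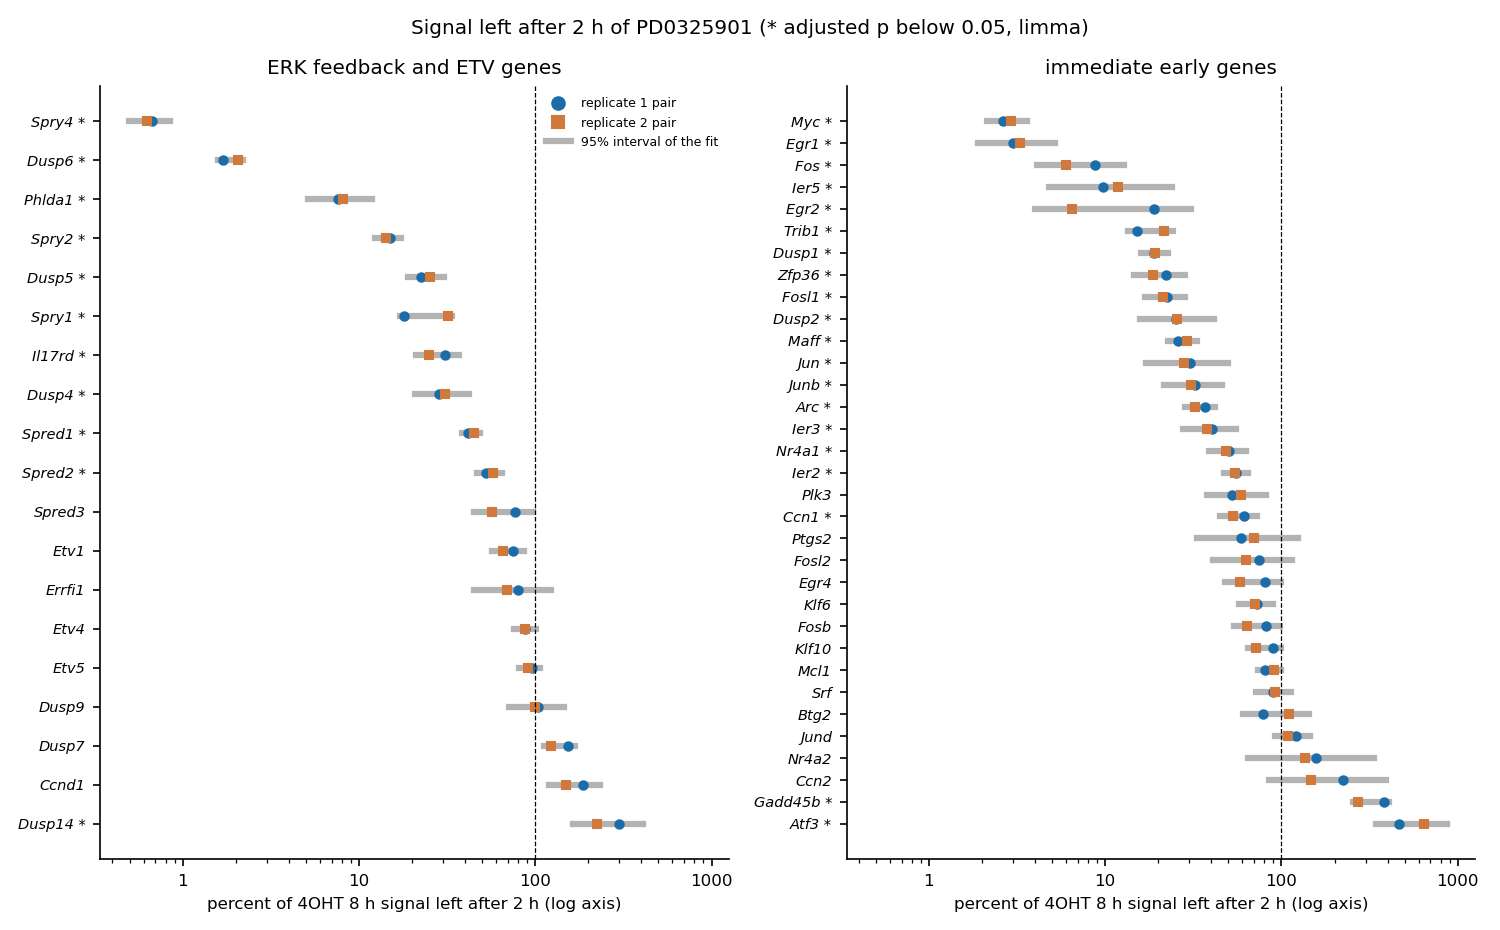
Percent of the 4OHT 8 h signal left after 2 h of PD0325901 (x axis, log scale) for the tested ERK feedback and ETV genes and immediate early genes, with circles and squares for the pairs of arrays with replicate number 1 and 2, grey bars for the 95% interval of the fit, and an asterisk for genes called. The feedback genes run from 0.648% for Spry4 to 258% for Dusp14, and the immediate early genes from 2.77% for Myc to 547% for Atf3.

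The immediate early genes, which signalling switches on without new protein synthesis, had mostly lower calls as well. Of 35 listed genes 33 were tested, 18 were called lower and 2 higher (21 and 3 with the replicate block), and the median was 54.9%. The lower calls numbered 9 to 17 with 1 array left out (9 without 8 h replicate 2 or PD0325901 replicate 2, 10 without replicate 1 of either group), and the higher calls 1 to 2, with 1 when either PD0325901 array was left out. Myc, the growth regulator, read 3.97 and 4.14 on the 8 h arrays and -1.28 and -0.96 after PD0325901 and kept 2.77% (95% interval 2.13 to 3.59%, -5.17 ± 0.15, limma adjusted p = 0.000310). It fell by a halving every 0.386 h, and ended below its untreated level of 1.70 and 1.67. Egr1 went from 4.76 and 5.15 to -0.29 and 0.23 and kept 3.15% (95% interval 1.91 to 5.21%, adjusted p = 0.00150, limma). Fos went from -0.09 and 0.61 to -3.60 and -3.46 and kept 7.25% (95% interval 4.09 to 12.9%, limma adjusted p = 0.00480). Replicate 2 was the higher array for Egr1 in all 4 groups.

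The AP-1 family, whose FOS and JUN proteins pair to bind DNA, differed member by member. Fosl1 kept 21.8% (from 0.32 and 0.29 to -1.84 and -1.94, limma adjusted p = 0.00278), Jun 29.1% and Junb 31.5% (from -0.25 and -0.24 to -1.88 and -1.94, adjusted p = 0.0142, limma). Fosl2, which 4OHT had raised from -4.31 and -5.16 in untreated cells, where 1 array was above background, went from -0.31 and -0.49 to -0.75 and -1.15, which is 68.5% and was not called (limma, adjusted p = 0.356, 95% interval 41.1 to 114%). Fosb stood at 72.4% and Jund at 115%, neither called. Ier2, a small nuclear protein gene of the class, kept 54.9% (from 1.93 and 1.87 to 1.07 and 0.99, adjusted p = 0.00797, limma). The calls for Junb (without either 8 h array or either PD0325901 array, adjusted p up to 0.0814) and Ier2 (without either 8 h array or PD0325901 replicate 2, adjusted p up to 0.0528) were lost on leaving arrays out.

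Other members that were called lower were the phosphatases Dusp1 (19.0%) and Dusp2 (25.5%), Trib1 (18.1%), Ier5 (10.7%), Maff (27.4%), Arc (34.6%), Ier3 (39.0%), Nr4a1 (49.3%) and Ccn1 (56.9%). Egr2 was well above background on both 8 h arrays (-2.99 and -1.42) and on neither inhibited array, a fall of at least 6.66-fold (limma adjusted p = 0.0384, lost without either untreated array, 8 h replicate 2, either 10 h array or either PD0325901 array, adjusted p up to 0.148), where the bound sets the 8 h mean against, on each inhibited array, the higher of the probe's own signal and the lowest signal well above background. That bound does not allow for the spread between arrays, and the 95% interval of the fit for Egr2 ran from 3.98 to 30.8% left. The upper end of that interval is a smaller fall than the bound. Egr2 was also kept for testing only through the 8 h and 10 h arrays, where it is high. Against the group, Atf3, a stress-responsive repressor of the ATF family, rose 5.47-fold (from -2.97 and -3.69 to -0.76 and -1.01, adjusted p = 0.00894, limma) and Gadd45b, a stress gene, rose 3.21-fold (from 0.51 and 0.73 to 2.44 and 2.17, limma adjusted p = 0.00409). Both had all inhibited arrays above all 8 h arrays, as did every gene called higher.

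Promoters of genes in this class are classically bound by serum response factor at the CArG box or by CREB at the cAMP response element, and the sequences of 5 are shown because they carry one of these motifs and differ in what was left. Windows from 250 bases before to 50 bases after each annotated start were taken from RefSeq (build GRCm38.p6), which gave windows for 11540 of the 14492 tested genes with a RefSeq name. The 250 bases before the start are printed 5′ to 3′ on the gene's strand, with CArG boxes and the element TGACGTCA in capitals. For Egr2 4 of its 5 windows held a CArG box, and 1 of them is printed.
Egr2, chr10:67537619-67537868 (plus strand): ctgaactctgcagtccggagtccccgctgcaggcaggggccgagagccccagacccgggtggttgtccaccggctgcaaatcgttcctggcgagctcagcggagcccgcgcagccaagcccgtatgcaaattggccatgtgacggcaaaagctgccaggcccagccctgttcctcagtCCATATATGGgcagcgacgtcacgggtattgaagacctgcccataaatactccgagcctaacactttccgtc
Dusp5, chr19:53528895-53529144 (plus strand): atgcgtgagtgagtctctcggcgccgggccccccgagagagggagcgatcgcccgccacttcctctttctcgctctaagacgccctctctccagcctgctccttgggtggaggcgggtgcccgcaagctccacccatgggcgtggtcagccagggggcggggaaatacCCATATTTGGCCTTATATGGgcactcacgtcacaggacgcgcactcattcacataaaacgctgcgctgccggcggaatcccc
Zfp36, chr7:28379229-28379478 (minus strand): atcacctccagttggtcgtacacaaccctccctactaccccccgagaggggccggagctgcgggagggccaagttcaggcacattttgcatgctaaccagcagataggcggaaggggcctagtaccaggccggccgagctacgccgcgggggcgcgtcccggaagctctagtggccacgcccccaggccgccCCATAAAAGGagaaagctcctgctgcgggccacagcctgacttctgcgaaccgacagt
Dusp1, chr17:26508473-26508722 (minus strand): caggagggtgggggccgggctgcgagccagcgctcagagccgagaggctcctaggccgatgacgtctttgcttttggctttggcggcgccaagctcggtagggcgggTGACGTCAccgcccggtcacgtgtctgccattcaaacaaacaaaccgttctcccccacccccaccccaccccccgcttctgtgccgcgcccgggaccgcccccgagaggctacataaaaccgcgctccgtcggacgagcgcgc
Srf, chr17:46556163-46556412 (minus strand): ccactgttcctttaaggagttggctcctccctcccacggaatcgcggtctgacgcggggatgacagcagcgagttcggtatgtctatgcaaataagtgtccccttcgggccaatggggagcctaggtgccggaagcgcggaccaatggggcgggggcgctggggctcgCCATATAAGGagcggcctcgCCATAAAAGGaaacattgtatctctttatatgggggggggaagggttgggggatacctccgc
Egr2 held 1 CArG box, Dusp5 2 adjoining ones and Zfp36 1. The bound for the fall of Egr2 was 6.66-fold, with the limit given above, while the others kept 24.0% and 20.3% of their 8 h signal. Dusp1 held 1 TGACGTCA and kept 19.0%. Srf, which encodes serum response factor itself, held 2 CArG boxes and stood at 90.3%, not called (limma, adjusted p = 0.582), and Vcl, Actg1 and Cnn2, cytoskeletal genes that also held a CArG box, stood at 93.1%, 95.7% and 78.3%. Sequences of the same kind thus stood before genes that fell and genes that were not called.

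Searched on both strands, a CArG box stood in a window of 195 of the 11540 genes (1.69%), against 10 of 410 genes called lower (2.44%), 5 of the 38 called genes with under 25% left (13.2%) and 10 of 510 called higher (1.96%). The shares for TGACGTCA were 3.38% of all these genes, 3.90% of the lower genes, 7.89% of those with under 25% left (3 of 38) and 2.35% of the higher genes. The ETS sequence CCGGAAGT was present for 8.03% of all, 8.54% of the lower, 0 of the 38 with under 25% left and 2.94% of the higher genes, and the AP-1 sequence TGANTCA for 6.46%, 5.37%, 5.26% and 8.24%. TGANTCA does not overlap TGACGTCA in its letters. Over the whole RefSeq table of 27025 genes the shares were 1.81% for the CArG box, 2.03% for TGACGTCA, 4.31% for CCGGAAGT and 8.97% for TGANTCA. These are descriptions of letters in short windows, over few genes in the deepest class.

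Genes for ligands, receptors and proteases that RAF and ERK signalling controls in other cells split. Of 24 listed, 16 were tested, 3 were called lower and 2 higher, and the replicate block gave 6 and 2. Hbegf, a ligand of the EGF receptor, fell from 4.14 and 3.93 to 0.93 and 0.68 and kept 10.7% (95% interval 8.29 to 13.7%, limma adjusted p = 0.00106). Epha2, an ephrin receptor, fell from 5.28 and 5.26 to 2.88 and 3.05 and kept 20.2% (adjusted p = 0.00112, limma), and the urokinase receptor Plaur kept 44.8%. Areg, Ereg and Vegfa stood at 29.8%, 38.9% and 51.1% and were called with the replicate block alone (adjusted p = 0.00849, 0.0413 and 0.0143, limma), Areg and Ereg being above background on 1 of the 8 h arrays and on no inhibited one. The protease Mmp9 stood at 66.1% and was not called (limma, adjusted p = 0.483). Plat, the tissue plasminogen activator gene, rose 2.59-fold (from -3.37 and -3.57 to -1.95 and -2.24, limma adjusted p = 0.00688) and the ephrin ligand Efna1 rose 3.19-fold.

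Components of the pathway itself, from receptors to kinases, were called about as often as genes at large without the replicate block, and more often with it. Of 40 listed, 38 were tested, with a median of 98.2%. By limma 0 were called lower and 3 higher (7.89% called, against 8.06% of all genes with a symbol). The replicate block gave 4 lower and 8 higher, where it gave 1502 lower and 1682 higher of all 22693 genes and features. The kinase genes Map2k1, Map2k2 and Mapk3 stood at 92.9%, 95.1% and 96.5%. The 3 higher genes were Fgfr1, an FGF receptor, which rose 1.46-fold (from 2.93 and 2.92 to 3.48 and 3.48, limma adjusted p = 0.0128), and the RAS exchange factors Rasgrp1 and Rasgef1a. Rasgrp1 read -1.40 and -1.51 in untreated cells, -5.34 and -5.85 at 8 h, where 1 array was above background, and -1.33 and -1.25 after PD0325901 (adjusted p = 0.00369, limma). Its inhibited arrays lay just above its untreated ones. Rasgef1a went from -4.32 and -5.09, with 1 array above background, to -1.07 and -1.54 (limma adjusted p = 0.00759). A second Fgfr1 probe changed by 0.06 and was not called (limma, adjusted p = 0.848), while another changed by 0.71 and was called (limma, adjusted p = 0.0141). The Fgfr1 call was lost without any 1 of the 4 arrays compared (adjusted p up to 0.0859, limma), and that of Rasgef1a without 4OHT 8h then PD0325901 2h replicate 1.

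Genes for messenger RNA decay factors are of interest because they act on the half-life of other transcripts. All 31 listed genes were tested, 6 were called lower and 0 higher by limma (2 higher with the replicate block), with a median of 95.3%. Leaving out 1 of the 4 arrays compared gave 5 lower calls. The Zfp36, Zfp36l1 and Zfp36l2 proteins bind AU-rich elements and recruit deadenylases, and all 3 genes fell. Zfp36l2 went from 4.92 and 4.86 to 2.22 and 2.38 (16.6% left, limma adjusted p = 0.000445), Zfp36l1 went from 4.68 and 4.40 to 2.57 and 2.28 (23.0%, adjusted p = 0.00299) and Zfp36 kept 20.3% (adjusted p = 0.00445). Noct fell from 6.35 and 6.16 to 2.93 and 2.76 and kept 9.40% (limma adjusted p = 0.000310). The ribonuclease gene Zc3h12a kept 40.9% and Btg3 67.6%. Subunits of the CCR4-NOT deadenylase stood between 88.3% (Cnot6) and 113% (Cnot2), and the exonuclease gene Xrn1 at 122%, none called.

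**Figure D3:**
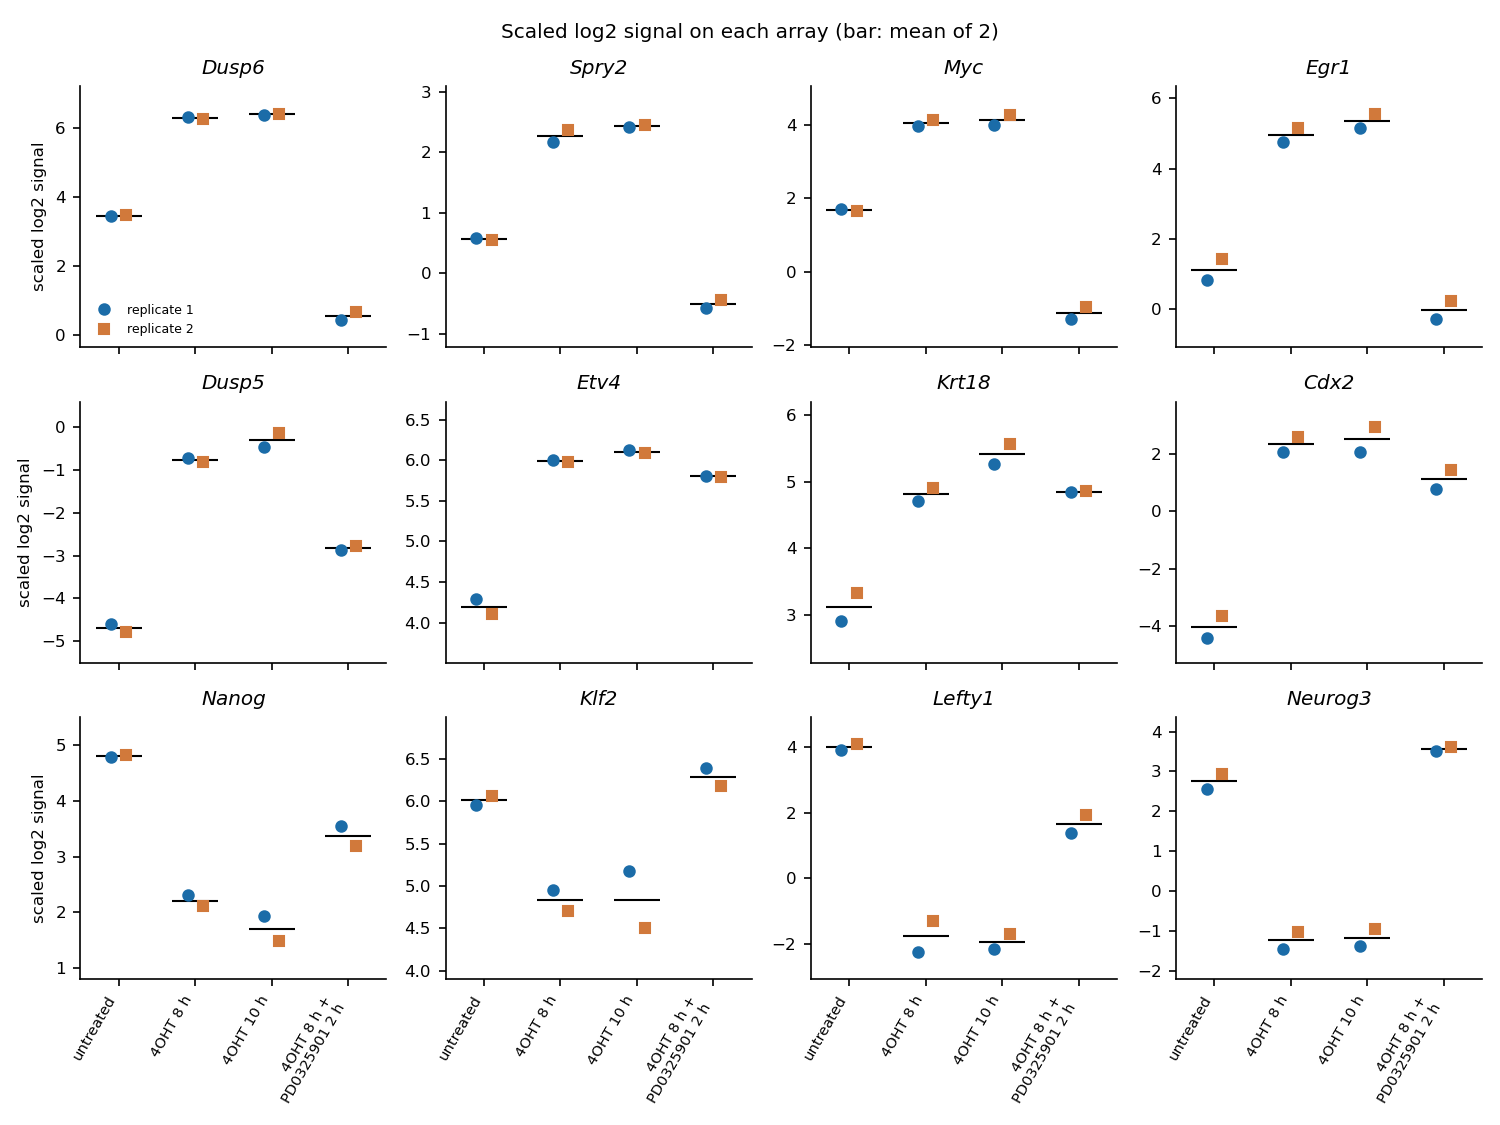
Scaled log2 signal (y axis, own range in each panel) of 12 genes on every array, with circles for replicate 1, squares for replicate 2 and a bar for the mean of 2, from left to right untreated, 8 h, 10 h and PD0325901 cells. Dusp6, Spry2, Myc and Egr1 drop below their untreated level, Dusp5 and Cdx2 drop part of the way, Etv4 and Krt18 stay near their 8 h level, and Nanog and Lefty1 regain part of their untreated level while Klf2 and Neurog3 reach or exceed it.

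How far the 4OHT response as a whole was undone was asked in genes chosen on other arrays. A fit of only the 2 untreated and 2 4OHT 10h arrays gave 921 genes at least 2-fold higher with 4OHT (4.06% of 22693) and 985 at least 2-fold lower (4.34%). These arrays take no part in the difference between PD0325901 and 8 h, although both fits belong to 1 slide. They do enter the spread that the calls rest on, so the choice and the calls are not independent. Of the 921 induced genes 247 were called lower after 2 h of PD0325901 (26.8%), 18 were called higher and 656 were not called, and the median was 78.9% left. Outside both sets, 450 of 20786 genes were called lower (2.16%) and 504 higher (2.42%), with a median of 97.2%. Of the 985 repressed genes 251 were called higher (25.5%) and 9 lower, and the median was 136%. Leaving out 1 array gave 134 and 123 induced genes called lower without 4OHT 8h replicate 1 or 2, 133 and 123 without the PD0325901 arrays and 156 and 120 without the 4OHT 10h arrays, and 124, 110, 91, 99, 162 and 106 repressed genes called higher, in that order. With the replicate block, also in the choice of genes, the counts were 376 of 1055 and 471 of 1220. When only the 4 arrays compared were fitted, 115 of the 921 were called lower and 86 of the 985 higher. In that fit 154 of all 22693 were called lower and 174 higher.

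Expressed as the share of the 4OHT change that was undone (the 2 h change, sign turned, over the change from untreated to 4OHT 10h), the median was 18.9% for induced genes and 29.9% for repressed genes. The spread was wide. Among induced genes 69 had a share over 100%, 150 were undone by 50 to 100%, 460 by 0 to 50%, and 242 had moved in the direction of 4OHT. Since the share sets the change from 8 h against a change measured at 10 h, a value over 100% does not by itself place a gene past its untreated level. Among repressed genes 63 had a share over 100%, 237 were undone by 50 to 100% and 499 by 0 to 50%. The 247 induced genes called lower had a median of 39.1% left and of 71.0% undone. Their median 4OHT change was 1.96 log2 units, against 1.78 for the 656 not called.

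**Figure D4:**
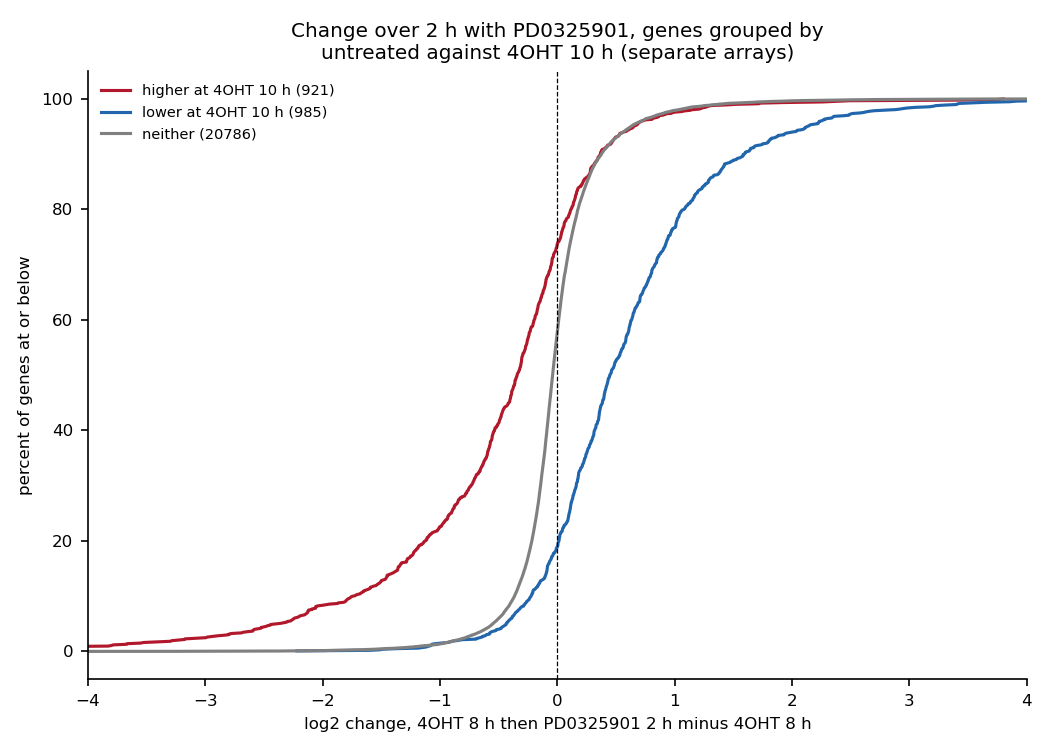
Cumulative share of genes (y axis, percent) by log2 change over 2 h with PD0325901 (x axis, 0 for no change), for the 921 genes higher at 4OHT 10 h (red), the 985 lower (blue) and the 20786 others (grey), which were chosen on arrays that do not enter the change plotted. The red curve lies to the left of the grey one with a median of -0.34, and the blue curve to the right with a median of 0.45.

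Several induced genes ended lower than in untreated cells. In the difference between PD0325901 and untreated arrays, where 8.79% of all genes were called lower and 7.05% higher (15.8% in all), Spry4 stood at -4.26 ± 0.16 log2 (limma, adjusted p = 0.000319), Dusp6 at -2.90 ± 0.09 (adjusted p = 0.000261) and Myc at -2.81 ± 0.15 (adjusted p = 0.000813). The homeobox gene Gbx2 stood at -1.65 ± 0.16, Noct at -1.28 ± 0.10, Hbegf at -1.23 ± 0.15, Epha2 at -1.16 ± 0.11, Spry2 at -1.08 ± 0.10 and Bmp4 at -1.04 ± 0.18, all called lower (limma, adjusted p 0.00241 to 0.0185). These differences share the PD0325901 arrays with the comparison to 8 h and are given beside it, not as a separate line of evidence. In these genes the untreated level was not the lowest of the series, in cells that all carried the FGF receptor inhibitor.

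Other induced genes kept most of their 8 h signal. Of 921, 323 had a 95% interval whose lower bound was above 66.7% left. That count includes genes that rose, and 177 also had an upper bound below 150%. The lists were chosen with earlier results of these data known, so their members do not stand for the 921. Among 94 induced genes in the lists 55 were called lower, 1 higher, and 14 had a lower bound above 66.7%. They included the keratin gene Krt18 (103%, 95% interval 75.8 to 139%), the junction gene Perp (99.9%, 69.2 to 144%), Etv4, the sterol gene Msmo1 (95.6%) and N-cadherin (Cdh2, 138%, called with the replicate block alone, adjusted p = 0.0288, limma). Their mean levels at 10 h without the inhibitor were 5.42, 4.38, 6.11, 4.91 and 2.40, in that order. After PD0325901 these means were 4.85, 4.07, 5.80, 4.35 and 2.37, so keeping the 8 h level does not mean matching the 10 h level. Cdx2, a homeobox factor of trophoblast and posterior epiblast that 4OHT had raised from -4.41 and -3.65 to 2.07 and 2.60, read 0.78 and 1.44 after PD0325901. It kept 42.7% and missed the threshold (adjusted p = 0.179) except under the replicate block (0.00530, limma), both pairs falling by a like amount while replicate 2 was the higher in every group.

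Naive pluripotency genes moved in both directions. All 22 listed genes were tested, 5 were called higher and 3 lower, with a median of 111%, and the replicate block gave 8 higher and 4 lower. Nanog read 4.78 and 4.83 in untreated cells and 2.31 and 2.12 on the 8 h arrays and 3.54 and 3.19 after PD0325901, a 2.23-fold rise (95% interval 161 to 308%, limma adjusted p = 0.0255). This brought it back part of the way, 37.2% of its 4OHT change. A second Nanog probe changed by 0.13 and was not called (adjusted p = 0.709), and the mean of the probes gave an adjusted p of 0.0651 (limma). Klf2 read 5.96 and 6.07 in untreated cells and 4.96 and 4.71 on the 8 h arrays and 6.40 and 6.18 after PD0325901, a 2.75-fold rise to above both untreated arrays (limma adjusted p = 0.0244). Fgf4, an ERK-activating ligand that naive cells make, rose 2.63-fold from 4.87 and 4.92 to 6.32 and 6.26 (adjusted p = 0.00314, limma), and Prdm14 rose 3.69-fold. The calls for Nanog (without either untreated array, either 8 h array or either PD0325901 array, adjusted p up to 0.130) and Klf2 (without either untreated array, either 8 h array or either PD0325901 array, adjusted p up to 0.124) were lost on leaving arrays out. The list had 2 higher calls without any 1 of the untreated, 8 h or PD0325901 arrays and 5 without either 10 h array, and 1 lower call without any 1 of the 4 arrays compared.

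Klf4 went from 4.13 and 3.63 to 5.28 and 4.75 (219.9%, adjusted p = 0.111, limma) and Tbx3 from 3.88 and 3.47 to 4.85 and 4.43 (195%, adjusted p = 0.0826, limma). Neither was called, and with the replicate block both were (0.0159 and 0.00954). Replicate 1 was the higher for both in all 4 groups. Esrrb, another core factor of the naive state, read 6.55 and 6.30 on the 8 h arrays and 6.54 and 6.22 after PD0325901 (96.5%, limma adjusted p = 0.927), with overlapping groups, and the sign of its change turned with quantile normalization, without 4OHT 8h replicate 1 and without 4OHT 8h then PD0325901 2h replicate 2. Gbx2 fell from 4.32 and 4.02 to -0.16 and -0.18 (4.95% left, adjusted p = 0.000560, limma), and Klf5 (60.6%) and Manba (63.4%) were also called lower.

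General pluripotency genes went down where they were called. Of 19, 6 were called lower and 0 higher by limma (7 and 0 with the replicate block), with a median of 85.9%, and leaving out 1 array gave 2 lower calls without any 1 of the 4 arrays compared, 3 without either 10 h array and 4 without either untreated array. Sox2 fell from 4.31 and 4.28 to 3.45 and 3.40 (54.7%, 95% interval 47.3 to 63.3%, limma adjusted p = 0.00657), below its untreated arrays at 3.93 and 4.11. Utf1 kept 71.0% (adjusted p = 0.0239, lost without either untreated array, either 8 h array or either PD0325901 array, adjusted p up to 0.138, limma). Pou5f1, the core factor OCT4, read 6.80 and 6.81 on the 8 h arrays and 6.73 and 6.46 after PD0325901 and was not called (86.5%, adjusted p = 0.303, limma).

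Cells leaving the naive state express formative and primed epiblast genes, of which 5 of 18 were called lower and 1 higher (7 and 3 with the replicate block), with a median of 95.3%. The lower calls numbered 3 without 8 h replicate 2 or PD0325901 replicate 1 and 4 without any other array, and the higher call, Sfrp2, was lost without any 1 of the 4 arrays compared. Transcription factor genes led: Foxd3 fell from 2.90 and 2.77 to 0.71 and 0.65 (22.5% left, limma adjusted p = 0.00125), Otx2 from 3.98 and 4.32 to 1.90 and 2.15 (22.9%, adjusted p = 0.00433, limma) and Sox4 from 2.59 and 2.78 to 1.16 and 1.13 (34.4%, limma adjusted p = 0.00560). Pou3f1 (OCT6) kept 33.5%. Foxd3 had been somewhat above its untreated level of 1.99 and 2.03 at 8 h and ended well below it. The DNA methyltransferase Dnmt3b stood at 101%, Fgf5 at 94.4% and Lef1 at 96.1%, none called.

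Primitive streak genes were thinly covered, with 11 of 18 tested, 3 called lower and 1 higher (3 and 1 with the block). Evx1, a homeobox gene of the posterior streak, fell from 1.16 and 0.72 to -1.32 and -1.69 (18.4% left, adjusted p = 0.00582, limma), Eomes from 0.29 and 0.03 to -0.71 and -0.92 (50.8%, limma adjusted p = 0.0130) and Mesp1 from -1.76 and -2.30 to -4.72 and -5.90, where 1 array was above background (10.3%, adjusted p = 0.0209, limma). Gsc, an organizer gene, was the 1 called higher (3.61-fold, limma adjusted p = 0.0426), a call that remained without 4OHT 8h replicate 1 and was lost without any other array. Brachyury (T) stood at 60.3%, not called. The call of Eomes was lost without 8 h replicate 1 or PD0325901 replicate 2, and that of Mesp1 without either 8 h array or PD0325901 replicate 2, adjusted p up to 0.0961.

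Primitive endoderm genes differed more between the replicate numbers than between the groups. Of 24, 21 were tested and 0 were called by limma, and the replicate block gave 1 lower and 3 higher calls. Replicate 1 exceeded replicate 2 by a median of 1.47 log2 units at 8 h and 1.19 after PD0325901, and the summed signal of the list was 444 and 368 at 8 h and 487 and 367 after PD0325901. Gata6, a master factor of this lineage, read 0.27 and -1.75 at 8 h and -0.69 and -2.58 after PD0325901, a difference between replicates larger than that between groups (53.9%, adjusted p = 0.712, and 0.00398 with the replicate block, limma). Its change turned sign without 8 h replicate 1 or PD0325901 replicate 2. Whether such cells contribute to other results was not tested.

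Genes of the NODAL pathway, which LEFTY proteins inhibit outside the cell, moved in both directions. Of 19 genes tested 3 were called higher and 3 lower (4 and 5 with the replicate block), with a median of 99.3%. Lefty1 read 3.90 and 4.09 in untreated cells and -2.25 and -1.30 on the 8 h arrays and 1.38 and 1.93 after PD0325901, a 10.8-fold rise (limma adjusted p = 0.00814) that undid 57.7% of its 4OHT change. Nodal rose 2.33-fold from 2.73 and 3.0037 to 4.14 and 4.04 (adjusted p = 0.00601, limma), near its untreated 4.27 and 4.30. The co-receptor gene Cfc1 rose from -4.96 and -6.31, with 1 array above background, to -2.61 and -2.57. In the other direction Lefty2 fell to 65.8% (from 1.07 and 0.97 to 0.35 and 0.48, limma adjusted p = 0.0271), Tgif1 to 49.2% and the inhibitory SMAD gene Smad7 to 18.1% (from 2.82 and 2.52 to 0.32 and 0.08, adjusted p = 0.00186, limma). The list's lower calls numbered 1 without 4OHT 8h replicate 2 or either PD0325901 array and its higher calls 1 without 4OHT 8h then PD0325901 2h replicate 2. The Lefty1 call was lost without 4OHT 8h then PD0325901 2h replicate 2 (adjusted p = 0.0528, limma).

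BMP and SMAD1/5 genes were also divided. Of 15, 13 were tested, 5 called lower and 2 higher, with a median of 89.6% (3 lower without either untreated array, 8 h replicate 1 or PD0325901 replicate 1 and 4 without any other, and 1 higher without any 1 of the 4 arrays compared). The ligand Bmp4 fell from 6.33 and 6.08 to 2.53 and 2.78 (8.53% left, 95% interval 6.25 to 11.6%, limma adjusted p = 0.00125). The ID genes, inhibitors of bHLH factors, disagreed: Id1 fell from 5.56 and 5.32 to 3.48 and 3.79 (28.6%, adjusted p = 0.00622, limma) and Id3 from 1.13 and 1.36 to -1.40 and -1.37 (16.1%, limma adjusted p = 0.00125), whereas Id2 rose 6.29-fold from 0.80 and 1.36 to 3.79 and 3.68 (adjusted p = 0.0122, limma). Msx1 kept 33.1%, while its relative Msx2 rose 1.73-fold. Id3 was not called between 8 h and untreated arrays (1.29 and 1.59; limma, adjusted p = 0.334), a comparison in which 21.7% of genes were called, 10.3% higher and 11.5% lower, and its inhibited arrays lay below every other array.

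Among WNT targets 2 of 16 were called lower and 0 higher by limma (4 and 1 with the replicate block). By limma 12.5% of the list was called, against 8.06% of all genes with a symbol. The receptor Fzd7 fell from 2.13 and 2.07 to -0.05 and 0.07 (23.5% left, limma adjusted p = 0.000445) and the transcription factor Sp5 from 1.94 and 1.95 to 0.90 and 0.73 (45.5%, adjusted p = 0.00562, limma). A second Fzd7 probe changed by -0.03 and was not called (limma, adjusted p = 0.925), and the mean of the probes changed by -1.06 (adjusted p = 0.00452, limma). Axin2, the most used WNT readout, stood at 46.2% and was called with the block alone (adjusted p = 0.0560, block 0.0420, limma). Among LIF and STAT3 targets 4 of 16 were called lower and 1 higher (5 and 4 with the block): Cebpd fell to 16.6% (from 2.71 and 2.71 to -0.06 and 0.30, limma adjusted p = 0.00321), Pim1 to 24.3% (from 2.05 and 2.09 to 0.03 and 0.04) and Socs2 to 43.9%. The receptor subunit gene Il6st was the 1 called higher (1.65-fold, adjusted p = 0.0320, limma), a call lost with each array left out. Socs3, a direct STAT3 target, stood at 133% and was not called (adjusted p = 0.0783, block 0.0288, limma).

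In retinoic acid metabolism 15 of 16 genes were tested, 2 were called lower and 4 higher (4 and 4 with the block). Cyp26a1, which clears retinoic acid, fell from 0.83 and 0.81 to -2.79 and -2.62 (8.69% left, limma adjusted p = 0.000310), and remained above its untreated -4.77 and -4.79. The receptor Rarg kept 49.2% (adjusted p = 0.00464, limma), while the receptor Rarb (1 of its 8 h arrays above background), the binding protein Crabp2 and the dehydrogenase Rdh10 stood at 248%, 185% and 163%, all called higher. Dhrs3, a retinaldehyde reductase, rose 2.83-fold from -0.38 and -0.72 to 1.02 and 0.88 (limma adjusted p = 0.00433). The higher calls of the list numbered 1 without either 8 h array or 4OHT 8h then PD0325901 2h replicate 2, 2 without either untreated array or 4OHT 8h then PD0325901 2h replicate 1, and 3 without either 10 h array.

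NOTCH and HES genes had a median of 137%, with 14 of 18 tested, 0 called lower and 2 higher by limma, and 0 and 6 with the replicate block. By limma 14.3% of the list was called, against 8.06% of all genes with a symbol. The ligand Dll1 read -4.34 and -3.73 on the 8 h arrays and -1.40 and -0.43 after PD0325901 (8.70-fold, adjusted p = 0.0395, limma, with replicate 2 the higher array in each group and the call lost without either 8 h array, either 10 h array or either PD0325901 array, adjusted p up to 0.160). Lfng, a sugar transferase that modifies NOTCH, rose 4.17-fold from -3.54 and -3.08 to -1.34 and -1.16 (limma adjusted p = 0.00657), from 8 h levels that were not called against untreated ones (-3.53 and -3.37; limma, adjusted p = 0.660). Hes1, the best known NOTCH target, stood at 86.2% and Notch1 at 105%, neither called.

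Trophoblast genes had 2 of 16 called higher and 0 lower by limma (4 and 2 with the block). By limma that was 12.5% of the list, against 8.06% of all genes with a symbol. Ascl2, a bHLH factor of trophoblast, rose 6.50-fold from 0.13 and 0.71 to 2.86 and 3.38 (adjusted p = 0.00880, limma) and Tfap2c 4.77-fold from 0.72 and 0.59 to 3.29 and 2.53 (limma adjusted p = 0.00857). Both ended above their untreated arrays. Their calls were lost without 4OHT 8h then PD0325901 2h replicate 2 (Ascl2) or 4OHT 8h replicate 2 (Tfap2c). Hand1, which 4OHT induced, stood at 77.8%, and Gata3 at 263%, neither called (Gata3 adjusted p = 0.0753, block 0.0189, limma).

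Genes of the p53 response and apoptosis included 6 called higher and 2 lower of 20 tested (6 and 3 with the replicate block), with a median of 109%. Pmaip1 (NOXA), a BH3-only death gene, fell from 2.54 and 2.24 to -0.41 and -0.97 (11.8% left, limma adjusted p = 0.00342), and the survival gene Bcl2l1 kept 60.1%. Bmf, of the same class, rose 4.10-fold from -0.28 and -0.04 to 1.85 and 1.91 (adjusted p = 0.00125, limma), and Bbc3 (PUMA) stood at 214%, also called higher. Sesn1 rose 1.80-fold and the cell cycle inhibitor Cdkn1a 2.37-fold (limma adjusted p = 0.00759 and 0.0358). Fas, a death receptor, rose at least 2.22-fold, since neither 8 h array was well above background (limma, adjusted p = 0.0254). Mdm2, a direct p53 target, stood at 92.0% and Ccng1 at 114%, neither called. The higher calls numbered 1 without 4OHT 8h replicate 2 or either PD0325901 array, 2 without 4OHT 8h replicate 1, 3 without either 10 h array and 4 without either untreated array, and those of Sesn1 (without 8 h replicate 2 or either PD0325901 array, adjusted p up to 0.0555) and Cdkn1a (without either 8 h array, either 10 h array or either PD0325901 array, adjusted p up to 0.163) were among those lost.

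Sterol, ribosome biogenesis and G2 and M lists had 0 calls by limma within 2 h, while the G1 and S list had 2 of 20 (10%). Over all genes with a symbol 8.06% were called. The replicate block called 1502 lower and 1682 higher of all 22693 genes and features. Sterol biosynthesis had 0 of 25 genes called by limma or with the block, with values from 84.2% (Stard4) to 119.7% (Hmgcs1). Ribosome biogenesis and MYC targets had 0 of 24 called (2 lower with the block), from 74.9% (Rrs1, block adjusted p = 0.0169, limma) to 115% (Pes1) with a median of 94.0%, while Myc itself kept 2.77%. G2 and M genes had 0 of 20 called by limma or with the block, from 78.1% (Aurkb) to 159.5% (Cenpf). Among G1 and S genes E2f2 fell to 28.2% (from 3.72 and 3.18 to 1.89 and 1.36, limma adjusted p = 0.0269, lost without either untreated array, either 8 h array or either PD0325901 array, adjusted p up to 0.117) and Cdkn1a rose, with 4 lower and 5 higher of 20 under the block.

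Stress, cytoskeletal and metabolic lists had 1 or 2 called members each without the replicate block, a share near that of all genes with a symbol (8.06%). Xbp1, a factor of the unfolded protein response, fell from 5.46 and 5.34 to 3.91 and 3.84 (34.7% left, adjusted p = 0.00133, limma), the 1 gene called of 19 in its list (3 lower without either 10 h array, and 1 lower and 1 higher with the replicate block), while the chaperone gene Hspa5 stood at 111%. Of 20 SRF and YAP cytoskeletal targets tested, 1 was called, Amotl2, 1.75-fold higher (limma adjusted p = 0.00888, lost without either 8 h array or PD0325901 replicate 1, adjusted p up to 0.0568), and the replicate block gave 2 lower and 3 higher calls. Actb stood at 92.6%. The hypoxia and mTOR-linked genes Ndrg1 and Ddit4 rose 1.74-fold and 1.95-fold (adjusted p = 0.0105 and 0.0164, limma), and 0 of the other 20 glycolysis and hypoxia genes were called (3 lower and 2 higher with the block). The Ndrg1 call was lost without either 8 h array or either PD0325901 array, adjusted p up to 0.0647, and the Ddit4 call without either 8 h array or PD0325901 replicate 2, adjusted p up to 0.0854.

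**Figure D5:**
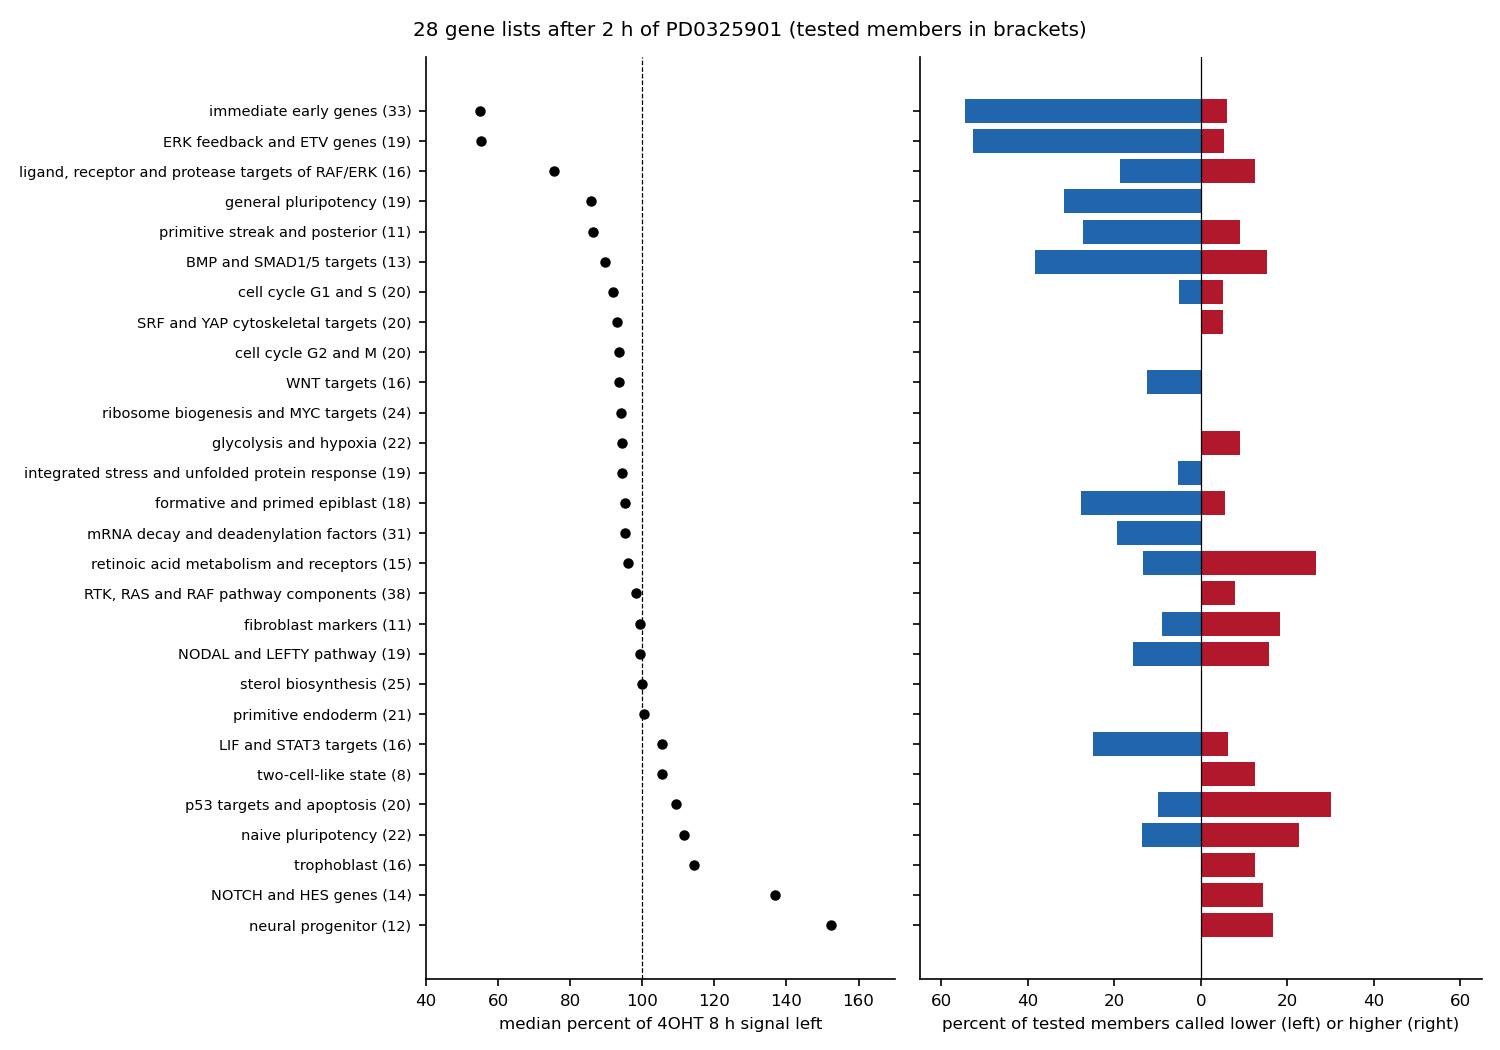
Median percent of the 4OHT 8 h signal left after 2 h of PD0325901 for 28 gene lists (left panel, dashed line at 100%) and percent of tested members called lower (blue, to the left) or higher (red, to the right), with the number of tested members in brackets. Immediate early genes (median 54.9%) and ERK feedback genes (55.1%) lie lowest, and NOTCH (137%) and neural progenitor genes (152%) highest.

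Some genes fell below or rose from background. Ptger2, a prostaglandin receptor, read -0.37 and -0.98 at 8 h and was not well above background on either inhibited array, a fall of at least 19.7-fold (limma adjusted p = 0.00342). The noncoding RNA Platr8 fell at least 4.15-fold and the kinase gene Styk1 at least 2.55-fold. In the other direction the homeobox gene Hoxb13 was not above background at 8 h and read -1.88 and -1.82 after PD0325901, a rise of at least 7.47-fold (adjusted p = 0.000310, limma) that brought it near its untreated -1.81 and -1.57. Foxj1, a factor of ciliated cells, rose at least 6.50-fold and Runx2, a bone factor, at least 3.88-fold, from a level not above background in untreated cells either (limma adjusted p = 0.0115 and 0.0233). The Foxj1 call was lost without either PD0325901 array, adjusted p up to 0.0700, and the Runx2 call without either 8 h array or either PD0325901 array, adjusted p up to 0.117. Pramel30 rose at least 6.62-fold and the receptor gene Gpr146 at least 3.86-fold, while the zinc finger gene Zfp202 fell at least 1.83-fold. The 95% intervals of the fit began at 298% for Runx2 and 357% for Gpr146, smaller rises than their bounds. The calls of Styk1 (without either PD0325901 array, adjusted p up to 0.0528), Gpr146 (without either 8 h array, either 10 h array or either PD0325901 array, adjusted p up to 0.133) and Zfp202 (without either 8 h array or PD0325901 replicate 2, adjusted p up to 0.0606) were lost on leaving arrays out.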

How the data were processed

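Total RNA of 8 mouse embryonic stem cell cultures (4 groups of 2) was hybridised to 1 slide of single-colour Agilent arrays (design 028005). Background was subtracted and spots detrended with Agilent Feature Extraction 11.0.1.1, per the file headers, and the deposited intensity of a spot is its processed signal on a linear scale; the deposited spot marks, a yes or no per spot in other columns, give control spots, outliers and spots well above background. The labels name the dye Cy5 while the headers give 1 green channel. The deposited value table of intensity matched the scanner files to within 0.5%, is linear and uncentred, and has array medians of 18.1 to 25.1.

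From these, outlier spots were dropped, spots of a probe averaged, the signals divided by each array's 75th percentile (309.0 to 392.6) and log2 taken. Probes had to be well above background on both arrays of some group, which left 30336 of 55681, and a gene took its brightest kept probe. Accessions were given symbols through a RefSeq table (27656 probes with 1, 28025 with none, kept under the file's name). limma 3.58.1 in R 4.3.3 fitted a mean per group to all 8 arrays (22693 genes and features, 1 without a p, 28 lacking a value on some array; 4 residual and 1.71 prior degrees of freedom). Tests are two-sided with Benjamini-Hochberg adjustment and a threshold of 0.05. The scripts were tested on simulated data. The number of arrays limits the precision.

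The same replicate numbers paired the arrays: arrays of the same number deviated together from their group means, with correlations of 0.29 to 0.36 over the 6 pairs of groups (0.31 for the groups compared). The number is also the slide's row. Group and slide column cannot be told apart. Values with the number as a block are given where they change a named gene's call or a list's count.

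The 4OHT-responsive genes were chosen in a separate fit of the untreated and 4OHT 10h arrays (at least 2-fold, adjusted p below 0.05). A bound for a gene not well above background on either array of a group takes, on each array, the higher of that probe's signal and the lowest signal well above background. It allows for dim signal and not for the spread between arrays. Genes are named if among the 10 largest falls or rises, the 5 largest bounds each way, up to 3 called members with the smallest adjusted p of each of 28 lists, or on a fixed list of 25 known ERK and pluripotency genes. The largest falls, rises and bounds were taken from called genes without overlap between the groups' arrays, a condition that all called genes met. The members and lists were chosen with earlier results of these data known. Some genes of the lists, 1 of them under this rule, are not reported by name here. Other scalings, filters, priors and left-out arrays were tried. RefSeq promoters were searched with Python 3.11.15.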

Additional observations from a re-analysis of the deposited data

How the results depend on the processing

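The counts of genes called lower and higher (706 and 773) and of the 4OHT-induced genes called lower (247) and 4OHT-repressed genes called higher (251) stayed within 1.5 times under quantile normalization, median centring, the deposited value table, probes well above background on all 8 arrays, the mean over a gene's probes and a choice of 4OHT genes in the fit of all 8 arrays. Without a filter on dim probes (36983 features) they fell to 178 and 180, and the separate choice of 4OHT genes then gave none. Fitting only the 4 arrays compared gave 154, 174, 115 and 86. An intensity trend with a robust prior raised the lower count to 1089, and a test against a fold of 1.2 gave 271 lower, 319 higher and 151 repressed genes called higher. Normexp background correction gave 161 of 433 repressed genes, and dropping the 2-fold minimum gave 389 of 1776 induced and 393 of 2204 repressed genes. Leaving out 1 array gave 180 to 519 lower, 208 to 555 higher, 120 to 156 induced and 91 to 162 repressed genes; without an untreated array no 4OHT gene passed the separate fit, so the last 2 counts could not be had. The cause of these differences was not tested.

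With the replicate number as a block, which the pairing of the arrays calls for, the counts were 1502, 1682, 376 (of 1055) and 471 (of 1220), and all 706 and 773 genes were among the first pair. Of 100 named genes the block changed the calls of Klf4, Tbx3, Cdx2, Gata6 and Rrp9 (adjusted p = 0.0453, limma) and no other. Of 87 called named genes 51 kept their side of the threshold under every alternative that tested them, and 0 changed direction. There were 19 alternatives, or 18 for genes outside the filter on all 8 arrays, which held 83 of the 100 named genes. Esrrb, not called, changed by -0.05 and by 0.0036 under quantile normalization, 0.07 without 4OHT 8h replicate 1 and 0.11 without 4OHT 8h then PD0325901 2h replicate 2 (-0.21 to 0.11 over all arrays left out in turn); Gata6, not called, changed by 0.12 and 0.05 without the same arrays (-1.90 to 0.12 over all). Another scaling moved the median of all genes from -0.04 to between -0.06 and 0.00. Signals had to reach 6.68 to 9.58 on replicate 1, and 14.8 or more on replicate 2, to be well above background, which limits dim genes in replicate 2.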

Other observations

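Beyond the 4OHT-responsive sets, 450 genes were called lower with a median of 64.8% left and 504 higher with a median of 175%, so that falls of at least 2-fold (64 genes) and rises of at least 2-fold (162 genes) also occurred outside those sets. Foxd3, Id3 and Smad7 are examples of the first kind, and Lfng, Plat and Dll1 of the second. Lying outside the sets does not mean unchanged by 4OHT, since 4932 of 22692 genes (21.7%) were called between 8 h and untreated arrays. Dll1 was among those called, at -2.25 log2 (limma, adjusted p = 0.0468). Features named in the files by a RefSeq messenger RNA were called lower in 3.66% and higher in 4.46% of 14039. Probes for genomic regions without a named transcript were called lower in 2.52% and higher in 1.53% of 2939, and the noncoding RNAs of RefSeq in 2.43% and 3.76% of 452.

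Markers of other cell types differed in how they moved. The summed signal of 12 neural progenitor genes was 21.7 and 24.5 in untreated cells, 9.74 and 10.3 at 8 h and 27.5 and 26.6 after PD0325901, with 2 genes called higher (4 with the replicate block), Neurog3 and Tubb3 (2.39-fold, limma adjusted p = 0.00409), and the defining factor Pax6 at 58.2%, not called. Neurog3 and Tubb3 carried that rise: without them the sum of the other 10 was 4.81 and 5.28 at 8 h and 4.69 and 4.28 after PD0325901. The sum of 11 fibroblast markers was 5.22 and 3.99 in untreated cells, 40.02 and 20.6 at 8 h and 28.1 and 16.6 after PD0325901. That sum does not describe a typical member. The list's median change was 0.17 log2 from untreated to 8 h, and its median was 99.3% left after PD0325901. Twist1 was called lower (45.4% left, adjusted p = 0.0470, limma) and S100a4 and Mmp2 were called higher (148% and 160.0%), with 2 lower and 2 higher under the replicate block. All 3 of these first calls were lost on leaving arrays out: Twist1 (without either 8 h array, either 10 h array or either PD0325901 array, adjusted p up to 0.196), S100a4 (without either untreated array, either 8 h array, either 10 h array or PD0325901 replicate 1, adjusted p up to 0.129) and Mmp2 (without 8 h replicate 2 or either PD0325901 array, adjusted p up to 0.0985). The sum of 8 genes of the two-cell-like state was 343 and 336 at 8 h and 395 and 334 after PD0325901, with Zfp352 called higher (168%, limma adjusted p = 0.0245, lost without either untreated array, either 8 h array, either 10 h array or either PD0325901 array, adjusted p up to 0.116).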
